A study of Mus musculus with 6 samples.

Results

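The collagen chain genes are the genes for the alpha chains that assemble, by trimers, into the collagens of the extracellular matrix. They were taken as every row of the deposited count tables whose gene symbol has the form Col, a number, a and a number, which gave 44 of the 41786 gene rows. By the structure of the proteins, 11 encode fibrillar chains, 6 encode type IV chains of basement membranes, 9 encode fibril-associated chains and 18 belong to other classes. After the filter on low counts, 42 of the 44 were among the 17364 genes tested. The 2 that were left out were *Col2a1*, the cartilage fibril chain, with counts of 3, 8 and 7 in vehicle 1 to 3, against 3, 4 and 1 in niclosamide 1 to 3, and *Col9a1*, with counts of 0, 4 and 4 and of 0, 0 and 5. A count of 3, the limit that a count of 0 allows, is 0.082 to 0.109 CPM (counts scaled to a common library size) here, and allows for counting error alone.

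The libraries came from lesions resembling endometriosis, a disease in which uterine lining tissue grows outside the uterus. All animals were female C57BL/6 mice. Uterus from GFP-positive donors aged 6 weeks had been sutured onto the peritoneal wall of wild-type recipients aged 8 weeks whose cycle stage matched. From 3 days later, recipients were given either vehicle or 200 mg/kg of niclosamide, an anthelmintic drug, every day for 3 weeks, and lesions were taken in diestrus. There were 3 libraries per group. Vehicle 1 pooled RNA of 4 mice and every other library came from 1 mouse, so the vehicle spread mixes a pool with single animals and may understate the spread between mice. Donor and recipient cells were not separated in the counts, and in such bulk tissue fewer cells of a type and less RNA per cell cannot be told apart. Total counts ran from 27797121 to 34797000 per library.

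Collagens are made as procollagen chains that are hydroxylated and folded in the endoplasmic reticulum, cut by extracellular proteases and crosslinked by lysyl oxidases. Fibrillar types I, III and V form the tensile fibrils of connective tissue, type IV forms the sheet under epithelia and around vessels and muscle cells, and fibril-associated collagens coat the fibrils. Type VI forms beaded filaments near cell surfaces. In the uterus, fibrillar collagen fills the stroma and the smooth muscle wall, and deposition of type I collagen is a known part of fibrosis in endometriosis.

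Most collagen chains had a lower mean in the niclosamide group, and no single chain passed the test over all genes. Of the 42 tested, 30 (71.4%) had a log2 fold change (niclosamide over vehicle) below 0, against 46.3% of all genes tested. The median log2 fold change was -0.34 over the collagen chains, with a range of -3.72 to 1.02, and 0.02 over all genes. Without vehicle 2 the median over the collagen chains was -0.16 and 24 were below 0. An unadjusted p under 0.05 was reached by 10 of the 42 (23.8%), all of them lower, against 6.92% of all genes in either direction and 3.55% lower. All 3 niclosamide libraries lay below all 3 vehicle libraries for 9 chains (21.4%) and above for 0, against 12.3% of all genes without overlap in either direction and 6.38% without overlap and lower. After Benjamini-Hochberg adjustment edgeR's quasi-likelihood test called 0 of the 42 chains and 0 of all genes (0%), and its 1202 genes with an unadjusted p under 0.05 are the set behind the 6.92%. DESeq2 called 1 of the 42, *Col10a1*, and 178 of 17670 genes (1.01%). The count of 10 depended on single libraries: 2 chains (*Col10a1* and *Col12a1*) had an unadjusted p under 0.05 without vehicle 2, 4 without vehicle 3 and 4 without niclosamide 1 (3 of the 10, and *Col13a1*), all lower, where 2.60%, 1.99% and 2.97% of all genes were lower at that p.

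**Figure D1:**
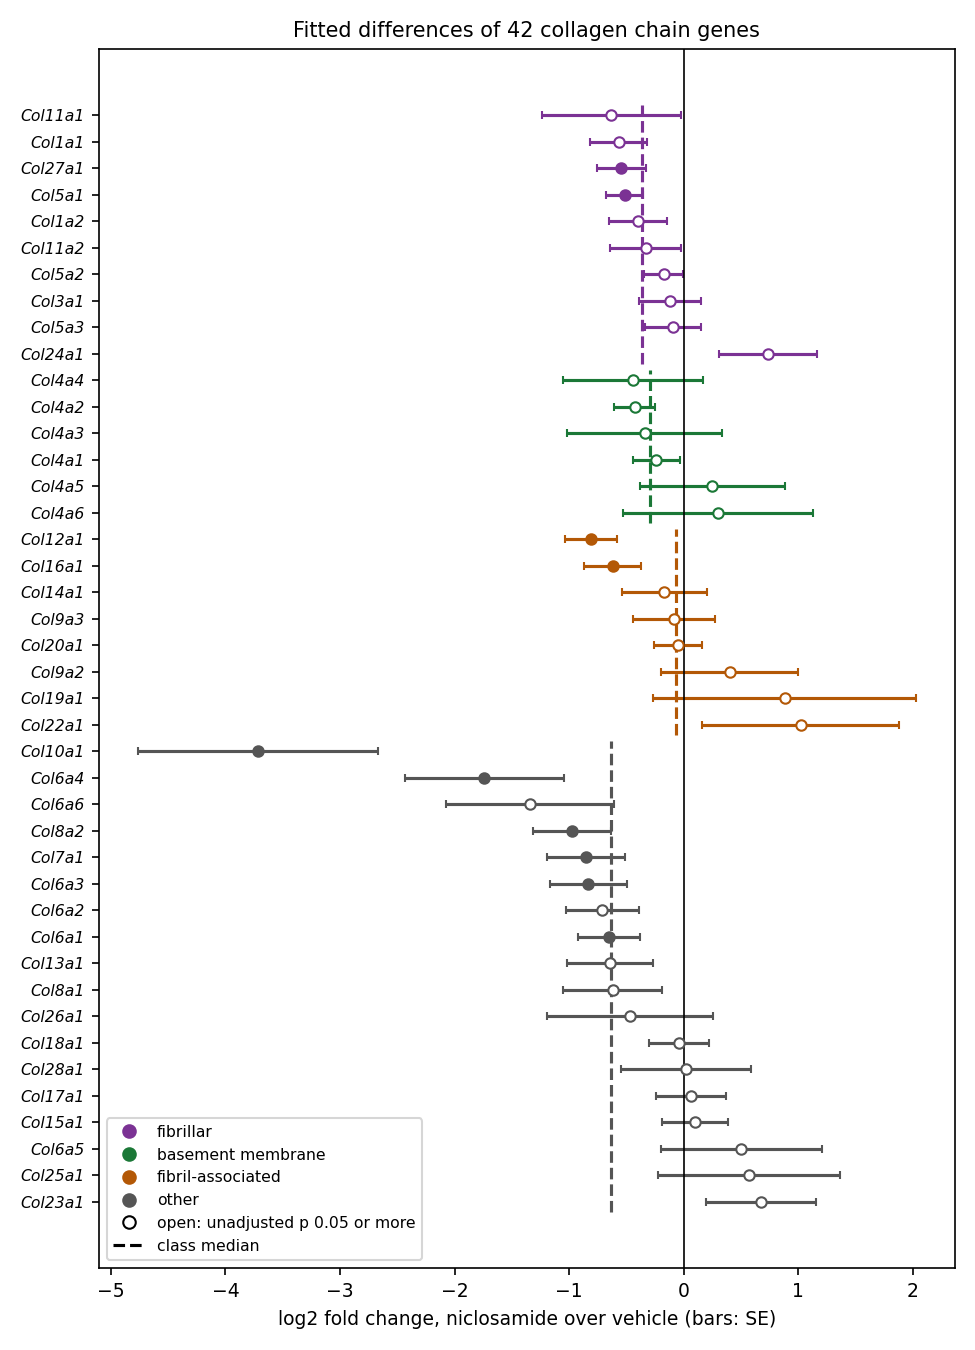
Log2 fold change (niclosamide over vehicle, horizontal axis) of the 42 collagen chain genes tested, grouped by class, with SE as bars, filled points for an unadjusted p under 0.05 and dashed lines at the class medians. The 10 filled points all lie left of 0, and *Col10a1* at -3.72 lies farthest out.

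In each of the 4 classes, the summed CPM of niclosamide 1 and 2 was below that of every vehicle library. Summed over fibrillar chains, CPM was 14643, 16337 and 15278 in vehicle 1 to 3, against 10179.9, 11159 and 16039 in niclosamide 1 to 3. Niclosamide 3 was within the vehicle range. The basement membrane sum was 1265, 1179 and 1154 in vehicle and 727, 1025 and 1282 in niclosamide, again with niclosamide 3 high. The fibril-associated sum was 1284, 1263 and 1289 in vehicle and 687, 871 and 989 in niclosamide. It was the class whose groups did not overlap, and its niclosamide mean was 0.664 of the vehicle mean. The sum of the other classes was 4277, 8042 and 5497 in vehicle and 2767, 3863 and 4308 in niclosamide, with vehicle 2 far above the rest and an overlap between vehicle 1 and niclosamide 3. All 44 together made up 2.12%, 2.81% and 2.38% of counted reads in vehicle and 1.36%, 1.63% and 2.34% in niclosamide. No p is given for these sums.

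**Figure D2:**
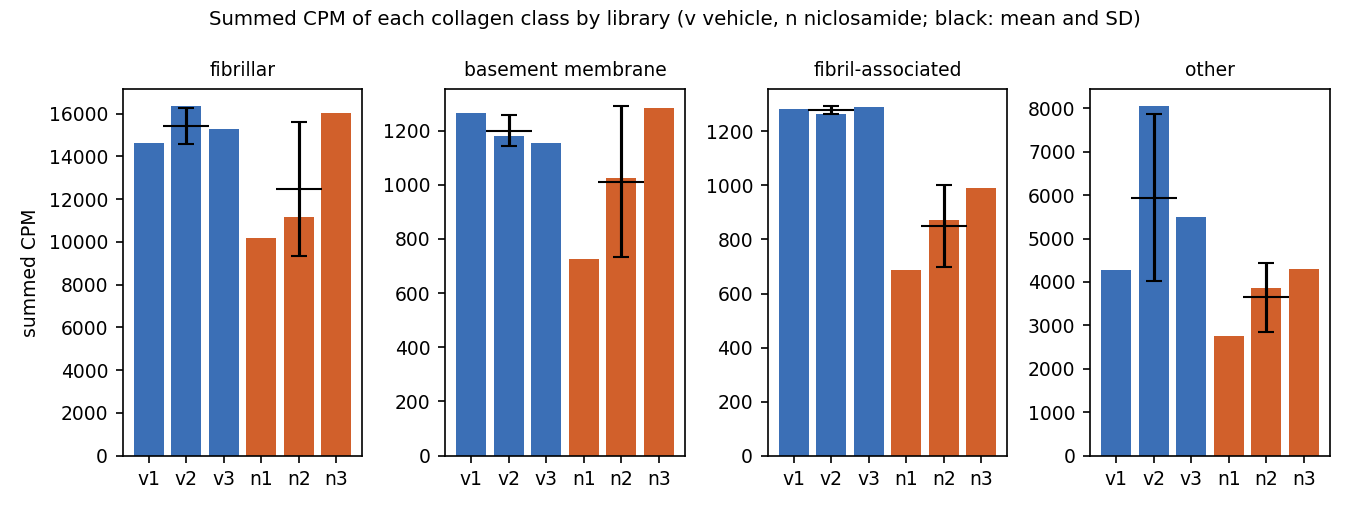
Summed CPM of each collagen class (vertical axes from 0, with a scale of their own) in each library, with the group mean and SD in black. The fibril-associated bars of niclosamide 1 to 3 (687, 871 and 989) are all below the vehicle bars, and in the fibrillar and basement membrane panels niclosamide 3 reaches the vehicle bars.

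Per kilobase of exon (RPKM, the CPM divided by exon length), the shares of the classes in the collagen RNA overlapped between groups. Fibrillar chains held 68.1% ± 3.53 (SD, n = 3) of the summed collagen RPKM in vehicle and 71.9% ± 2.70 (SD, n = 3) in niclosamide. Other classes held 24.8% ± 4.46 and 20.8% ± 2.30, type IV chains 4.33% ± 0.644 and 4.75% ± 0.431, and fibril-associated chains 2.77% ± 0.311 and 2.56% ± 0.0390. *Col3a1*, *Col1a2* and *Col1a1* were the most abundant, with means over the 6 libraries of 1005, 795 and 601 RPKM, followed by *Col6a1* at 394 and *Col6a2* at 238 RPKM.

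Among the fibrillar chains, *Col1a1*, *Col5a1* and *Col27a1* were lower in every niclosamide library than in any vehicle library, and the groups overlapped for the others, *Col3a1*, *Col5a2* and *Col5a3* among them. In all, 9 of the 10 tested had a log2 fold change below 0, with a class median of -0.37, and 2 had an unadjusted p under 0.05. Over all genes tested, 46.3% were below 0, 6.92% had that p and 12.3% had groups without overlap. *Col1a1* (chr11:94936270-94951867, plus strand, GRCm38), one of the pair of chains of type I collagen, was at 3363, 3745 and 3025 CPM in vehicle 1 to 3, against 1868, 2040 and 2927 CPM in niclosamide 1 to 3. All niclosamide libraries were below all vehicle libraries, niclosamide 3 narrowly. Its log2 fold change was -0.57 ± 0.25 (SE, n = 3 per group) with an edgeR adjusted p of 0.74. *Col1a2* (chr6:4505697-4541543, plus strand), the partner chain, was at 4020, 5291 and 4631 CPM against 2973, 3116 and 4487 CPM, overlapping through niclosamide 3. Its log2 fold change was -0.40 ± 0.25 (SE) with an edgeR adjusted p of 0.86.

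*Col3a1* (chr1:45311538-45349706, plus strand) encodes type III collagen, a homotrimer of soft and distensible tissues that joins type I in mixed fibrils. It was at 5765, 5654 and 6040 CPM in vehicle and 4172, 4674 and 7243 CPM in niclosamide. Niclosamide 3 was the highest of the 6 libraries and niclosamide 1 and 2 were the lowest, so the group means (5820 ± 199 and 5363 ± 1647 CPM, SD, n = 3) overlapped widely. Its log2 fold change was -0.12 ± 0.27 (SE; edgeR adjusted p = 0.97), and it turned to 0.03 without niclosamide 1.

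The type V chains regulate the width of type I fibrils. *Col5a1* (chr2:27886395-28039510, plus strand) was at 531, 625 and 512 CPM in vehicle and 355, 405 and 406 CPM in niclosamide. The groups did not overlap, with means of 556 ± 60.4 and 389 ± 29.2 CPM (SD, n = 3). This gave a log2 fold change of -0.52 ± 0.16 (SE), the unadjusted p 0.015 and the edgeR adjusted p 0.62. Over the 12 other settings and left-out libraries its log2 fold change stayed between -0.57 and -0.43. *Col5a2*, its partner, had a smaller log2 fold change of -0.17 ± 0.17 (SE), and *Col5a3* had -0.09 ± 0.24 (SE). *Col27a1*, a fibrillar chain known from cartilage, was at 26.1, 44.1 and 35.3 CPM against 25.4, 20.9 and 26.0 CPM. Its groups did not overlap, although vehicle 1 and niclosamide 3 nearly met, and the log2 fold change was -0.54 ± 0.21 (SE; edgeR adjusted p = 0.70), or -0.35 without vehicle 2.

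*Col24a1*, a minor fibrillar chain known from bone, was the fibrillar chain with a higher niclosamide mean. It was at 29.8, 15.2 and 38.8 CPM in vehicle and 57.0, 56.2 and 26.2 CPM in niclosamide. Niclosamide 1 and 2 were above every vehicle library and niclosamide 3 was within the vehicle range. Within the niclosamide group, the order of the libraries was the reverse of that seen for *Col1a1* and *Col1a2*. The log2 fold change was 0.74 ± 0.43 (SE; edgeR adjusted p = 0.84), or 0.44 without vehicle 2. The remaining fibrillar chains tested, *Col11a1* and *Col11a2*, had log2 fold changes of -0.63 ± 0.60 and -0.33 ± 0.31 (SE). *Col11a2* is annotated on 4 sequences in the tables, so its exon length is inflated and its reads may be undercounted.

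Ratios of chains within a library do not depend on library scaling. The *Col3a1* to *Col1a1* ratio of RPKM was 1.451, 1.278 and 1.690 in vehicle 1 to 3, against 1.890, 1.939 and 2.095 in niclosamide 1 to 3. Every niclosamide ratio was above every vehicle ratio, and the means were 1.47 ± 0.207 and 1.97 ± 0.107 (SD, n = 3). The *Col5a1* to *Col5a2* ratio was 0.531, 0.612 and 0.487 in vehicle and 0.456, 0.433 and 0.404 in niclosamide, lower in all 3 niclosamide libraries. The ratios *Col1a1* to *Col1a2* (means 0.800 ± 0.103 and 0.705 ± 0.0158), *Col4a1* to *Col4a2* (1.47 ± 0.0930 and 1.66 ± 0.161) and *Col6a1* to *Col6a2* (1.64 ± 0.0823 and 1.73 ± 0.169; SD, n = 3) overlapped between groups. These 5 ratios carry no test, and 2 of the 5 were apart. No share without overlap was counted for ratios of other genes. Each of the 2 holds a chain, *Col1a1* or *Col5a1*, whose own groups did not overlap.

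**Figure D3:**
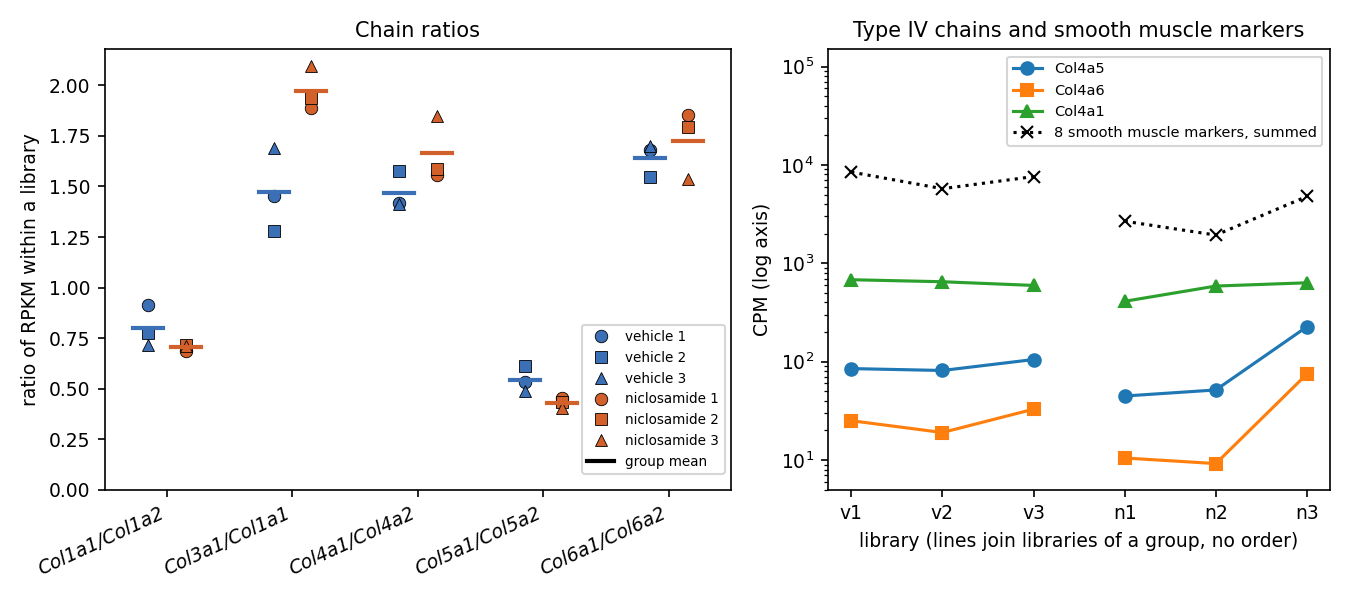
Left, RPKM ratios of chain pairs within each library with group means as bars; right, CPM on a log axis of *Col4a1*, *Col4a5*, *Col4a6* and the sum of 8 smooth muscle markers in vehicle (v) and niclosamide (n) libraries. The *Col3a1* to *Col1a1* ratio is above 1.8 in all niclosamide libraries, and *Col4a5* and *Col4a6* reach their highest values (227 and 74.9 CPM) in niclosamide 3.

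The 6 type IV chains of basement membranes did not all differ in the same direction. Their class median was -0.29, and it was -0.55 without niclosamide 3 and 0.085 without vehicle 2. A log2 fold change below 0 was found for 4 (46.3% of all genes tested), and an unadjusted p under 0.05 for 0 (6.92% of all genes). *Col4a1* and *Col4a2* encode the pair of chains found in nearly all basement membranes, and their genes start 2 bases apart on opposite strands of chromosome 8. *Col4a1* (chr8:11198423-11312826, minus strand) was at 681, 650 and 596 CPM in vehicle and 411, 587 and 634 CPM in niclosamide, with overlap and a log2 fold change of -0.24 ± 0.21 (SE), which was -0.078 without niclosamide 1. *Col4a2* (chr8:11312829-11449287, plus strand) was at 466, 399 and 408 CPM in vehicle and 256, 359 and 332 CPM in niclosamide. All niclosamide libraries were below all vehicle libraries, and the log2 fold change was -0.43 ± 0.18 (SE; edgeR adjusted p = 0.73).

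*Col4a5* (chrX:141475369-141689236, plus strand) encodes a chain of the type IV network around smooth muscle and in some epithelia. It was at 85.1, 81.3 and 105 CPM in vehicle and 44.8, 51.6 and 227 CPM in niclosamide. Niclosamide 1 and 2 were below every vehicle library and niclosamide 3 was far above them all. The log2 fold change was 0.25 ± 0.63 (SE; edgeR adjusted p = 0.98), and it was -0.90 without niclosamide 3 (edgeR adjusted p = 0.21; 0.21 to 1.00 over the 12 other settings and left-out libraries). *Col4a6*, which lies head to head with *Col4a5* with starts 1292 bases apart, was likewise highest in niclosamide 3 and below every vehicle library in niclosamide 1 and 2, at 25.1, 19.0 and 32.9 CPM against 10.5, 9.20 and 74.9 CPM. *Col4a3* and *Col4a4*, chains known from the glomerular basement membrane, were low, at most 15.3 CPM, with log2 fold changes of -0.34 ± 0.68 and -0.44 ± 0.61 (SE).

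Among the fibril-associated chains, the difference in the class sum came mostly from *Col12a1* and *Col16a1*. The class median was -0.07, since 3 of the 8 chains tested had a log2 fold change above 0 at low levels. An unadjusted p under 0.05 was reached by 2 of the 8, against 6.92% of all genes tested. *Col12a1* (chr9:79598987-79720841, minus strand), whose chains bind the surface of type I fibrils and which is known from tissue under mechanical load, was at 761, 676 and 676 CPM in vehicle. In niclosamide it was at 359, 529 and 320 CPM, so the groups were well apart, with means of 704 ± 49.4 and 403 ± 111 CPM (SD, n = 3). Its log2 fold change of -0.81 ± 0.23 (SE) had the smallest unadjusted p of any collagen chain, 0.011, with an edgeR adjusted p of 0.60. Over the 12 other settings and left-out libraries the log2 fold change ran from -1.07 to -0.65.

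*Col16a1*, a minor fibril-associated chain, was at 245, 321 and 312 CPM in vehicle and 147, 167 and 258 CPM in niclosamide. Niclosamide 3 was above vehicle 1, so the groups overlapped. The log2 fold change of *Col16a1* was -0.62 ± 0.25 (SE, edgeR adjusted p = 0.70). Like *Col11a2*, *Col16a1* is annotated on more than 1 sequence (2), so its exon length may be inflated and its reads undercounted. Its RPKM and the fibril-associated share of collagen RPKM may then be understated. The relative of *Col12a1*, *Col14a1*, was at 264, 245 and 284 CPM in vehicle and 156, 162 and 386 CPM in niclosamide. Niclosamide 3 was the highest of all 6 and the other niclosamide libraries were the lowest, and the log2 fold change of -0.17 ± 0.37 (SE) turned to 0.05 without niclosamide 1 and 0.03 without niclosamide 2. *Col22a1*, known from muscle and tendon junctions, was at 1.28, 4.50 and 2.95 CPM against 6.72, 0.896 and 10.2 CPM, with a log2 fold change of 1.02 ± 0.86 (SE; edgeR adjusted p = 0.93), which was 0.39 without niclosamide 3 and 1.52 without niclosamide 2. The summed CPM of 8 skeletal muscle markers was 31721, 739.6 and 10770.4 in niclosamide 1 to 3, so niclosamide 2 was the lowest of its group for both, and the part of muscle in the result was not tested. *Col9a2*, *Col9a3*, *Col19a1* and *Col20a1* had log2 fold changes between -0.09 and 0.88.

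Of the 18 chains of the remaining classes, 12 had a log2 fold change below 0, with a median of -0.63. An unadjusted p under 0.05 was reached by 6, and 4 had groups that did not overlap. Over all genes tested, 46.3% were below 0, 6.92% had that p and 12.3% had groups without overlap. Without vehicle 2 that median was -0.24, nearer to 0 than the -0.27 of the fibrillar chains. Type VI collagen, whose chains link the fibrils to cells, contributed most of the reads: 5 of its 6 chains had a log2 fold change below 0 and the median of the 6 was -0.77.

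*Col6a1* (chr10:76708792-76726044, minus strand) was at 1437, 2371 and 1934 CPM in vehicle and 926, 1301 and 1422 CPM in niclosamide. The groups did not overlap, although vehicle 1 and niclosamide 3 were close. Its log2 fold change was -0.65 ± 0.27 (SE; edgeR adjusted p = 0.72). *Col6a2*, its neighbour on chromosome 10, was at 1239, 2217 and 1647 CPM against 724, 1050 and 1342 CPM, with overlap and a log2 fold change of -0.71 ± 0.32 (SE; edgeR adjusted p = 0.76). *Col6a3* (chr1:90766860-90843971, minus strand), the long chain that completes the classical type VI trimer, was at 609, 1444 and 816 CPM against 460, 598 and 555 CPM. Vehicle 2 stood high for all of these chains. The log2 fold change of *Col6a3* was -0.83 ± 0.34 (SE; edgeR adjusted p = 0.72), and without vehicle 2 it was -0.41.

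The alternative type VI chains lie side by side on chromosome 9 and can take the place of the *Col6a3* chain. *Col6a4* (chr9:105990318-106096691, minus strand) was at 189, 932 and 335 CPM in vehicle and 78.2, 245 and 113 CPM in niclosamide. Vehicle 2 was far above the next library, and niclosamide 2 lay above vehicle 1. This gave a log2 fold change of -1.74 ± 0.70 (SE; edgeR adjusted p = 0.71), and it was -0.85 without vehicle 2. *Col6a6* was at 9.80, 70.6 and 17.1 CPM against 13.2, 16.2 and 9.13 CPM, and its log2 fold change of -1.34 ± 0.73 (SE; edgeR adjusted p = 0.81) rested on vehicle 2, since it was -0.07 without that library. *Col6a5*, between them on the chromosome, was highest in niclosamide 1, at 35.4 CPM, with a log2 fold change of 0.51 ± 0.71 (SE).

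**Figure D4:**
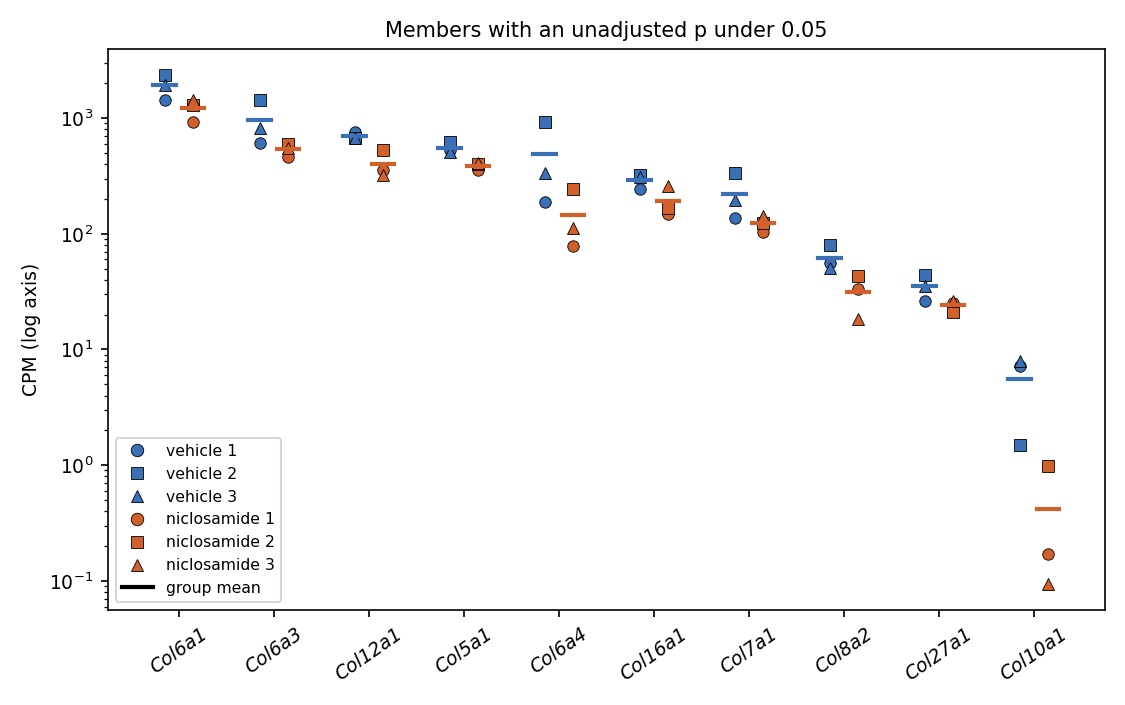
CPM on a log axis of the 10 collagen chains with an unadjusted p under 0.05, by library, with group means as bars. Marker shape gives the replicate number, by which the main fit did not pair the groups. Vehicle 2 stands above the other vehicle libraries for *Col6a4* and *Col7a1*, and *Col10a1* spans from 0.0932 to 8.01 CPM.

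*Col7a1*, the chain of the anchoring fibrils below stratified epithelia, followed the order of *Col6a4* among vehicle libraries. It was at 137, 336 and 194 CPM in vehicle and 103, 125 and 142 CPM in niclosamide, with overlap, and a log2 fold change of -0.85 ± 0.34 (SE; edgeR adjusted p = 0.70); without vehicle 2 it was -0.43. The short-chain collagens VIII and X form hexagonal lattices, and all 3 of their chains had a log2 fold change below 0. *Col8a2* was at 55.9, 79.7 and 50.6 CPM in vehicle and 33.4, 43.3 and 18.3 CPM in niclosamide. Its groups did not overlap, and the log2 fold change was -0.97 ± 0.34 (SE; edgeR adjusted p = 0.65). *Col8a1*, its partner chain from vessel walls, was at 140, 118 and 97.2 CPM against 53.4, 133 and 44.6 CPM, with niclosamide 2 inside the vehicle range.

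*Col10a1* (chr10:34389981-34397085, plus strand), known as the collagen of hypertrophic cartilage, had the largest fold difference of any collagen chain at a low level. Its counts were 198, 54 and 255 in vehicle and 5, 32 and 3 in niclosamide, that is 7.21, 1.48 and 8.01 CPM against 0.170, 0.988 and 0.0932 CPM. All niclosamide libraries were below all vehicle libraries, and vehicle 2 and niclosamide 2 came nearest to each other. By counting error alone (exact Poisson 95% intervals), vehicle 2 spanned 1.11 to 1.93 CPM and niclosamide 2 spanned 0.676 to 1.395 CPM, so the intervals of these libraries overlapped. The log2 fold change was -3.72 ± 1.05 (SE), with an unadjusted p of 0.011, an edgeR adjusted p of 0.60 and a DESeq2 adjusted p of 0.0084. It lay below 0 under all 12 other settings and left-out libraries, from -5.38 to -3.23, with adjusted p from 0.0084 to 1.00. *Col10a1* shares 886 exon bases with *Nt5dc1* on the opposite strand; the counting used strand, and *Nt5dc1* had a log2 fold change of 0.20 ± 0.17 (SE).

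Cartilage markers, in the same libraries as *Col10a1*, were at low levels apart from *Sox9*: *Acan* was at 0.154 to 1.16 CPM and *Hapln1* at 0.741 to 2.11 CPM, both above *Col10a1* in niclosamide 1 and 3, *Matn1* and *Matn3* were at 0 in some libraries, and *Sox9*, which uterine epithelium also makes, supplied most of the summed 8.12 to 26.0 CPM of the 6 markers in the files. The sum was 11.4 to 25.1 CPM in vehicle and 8.12 to 26.0 CPM in niclosamide.

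None of the multiplexin, transmembrane and remaining chains had an unadjusted p under 0.05. *Col15a1* and *Col18a1*, the multiplexins of vessel and muscle basement membranes, had log2 fold changes of 0.10 ± 0.29 and -0.04 ± 0.26 (SE). *Col15a1* was at 240, 243.2 and 217 CPM in vehicle and 191, 189 and 371 CPM in niclosamide, with the niclosamide 3 value above every vehicle library and the other niclosamide values below them; without niclosamide 3 its log2 fold change was -0.29. *Col23a1*, a transmembrane collagen, was at 10.7, 10.5 and 10.9 CPM in vehicle and 14.2, 7.29 and 30.0 CPM in niclosamide, with a log2 fold change of 0.68 ± 0.48 (SE; edgeR adjusted p = 0.90), which was 0.0099 without niclosamide 3 and 1.03 without niclosamide 2. *Col13a1*, *Col17a1*, *Col25a1*, *Col26a1* and *Col28a1* were at most 14.1 CPM, with log2 fold changes from -0.64 to 0.57.

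Promoter letters are shown for the chain with the lowest log2 fold change, *Col10a1*, and for 3 type VI chains with an unadjusted p under 0.05, to set their starts side by side. RefSeq promoter windows (GRCm38.p6) matched 35 of the 44 chains, and for the 4 shown the RefSeq start equals the start in the count tables. Each line gives the 120 bases before the start, 5′ to 3′ on the strand of the gene. The windows are chr10:34389861-34389980 (plus strand), chr10:76726045-76726164, chr1:90843972-90844091 and chr9:106096692-106096811 (minus strand). Capitals mark a match, on either strand, to the TATA box letters TATAAA, to the letters CCAAT of the CCAAT box or to the GC box letters GGGCGG.
Col10a1: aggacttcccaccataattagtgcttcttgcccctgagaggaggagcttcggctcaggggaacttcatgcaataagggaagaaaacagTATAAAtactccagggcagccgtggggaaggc
Col6a1: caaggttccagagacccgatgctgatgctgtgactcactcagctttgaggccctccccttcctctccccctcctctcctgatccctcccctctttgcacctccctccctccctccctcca
Col6a3: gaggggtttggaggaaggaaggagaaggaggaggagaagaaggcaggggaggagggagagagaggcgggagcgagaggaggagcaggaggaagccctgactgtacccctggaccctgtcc
Col6a4: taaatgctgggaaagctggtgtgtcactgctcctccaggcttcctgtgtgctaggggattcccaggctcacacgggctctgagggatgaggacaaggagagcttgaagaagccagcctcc
*Col10a1* holds TATAAA 32 bases before its start, and the 3 type VI windows hold none of the 3 motifs in these 120 bases. Farther from its start, *Col6a4* holds a match to CCAAT at 218 bases and to GGGCGG at 173 and 141 bases. *Col6a1* and *Col6a3* hold none within 250 bases. Within 250 bases before the start, TATAAA was found on either strand in 5 of the 35 collagen windows (14.3%) and in 12.4% of 32851 windows of all genes. CCAAT was found in 34.3% and 33.8%, and GGGCGG in 60% (21 of 35) and 32.7%. For each collagen chain only the window nearest the start of the gene was taken, whereas for all genes every listed window was counted. The percentages therefore come from sets chosen differently, and the difference between them was not tested. A match is a description of the letters and not a site.

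Library order recurred across the chains. The highest of the 6 libraries was vehicle 2 for 18 of the 42 chains, niclosamide 3 for 10 and niclosamide 1 for 7. Niclosamide 1 was the lowest of the 6 for 19. Of the 42 chains, 26 were below every vehicle library in niclosamide 1, 28 in niclosamide 2 and 17 in niclosamide 3, while 10, 1 and 11 were above every vehicle library. The same counts were not made over all genes, so whether this order is particular to collagen chains was not tested.

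**Figure D5:**
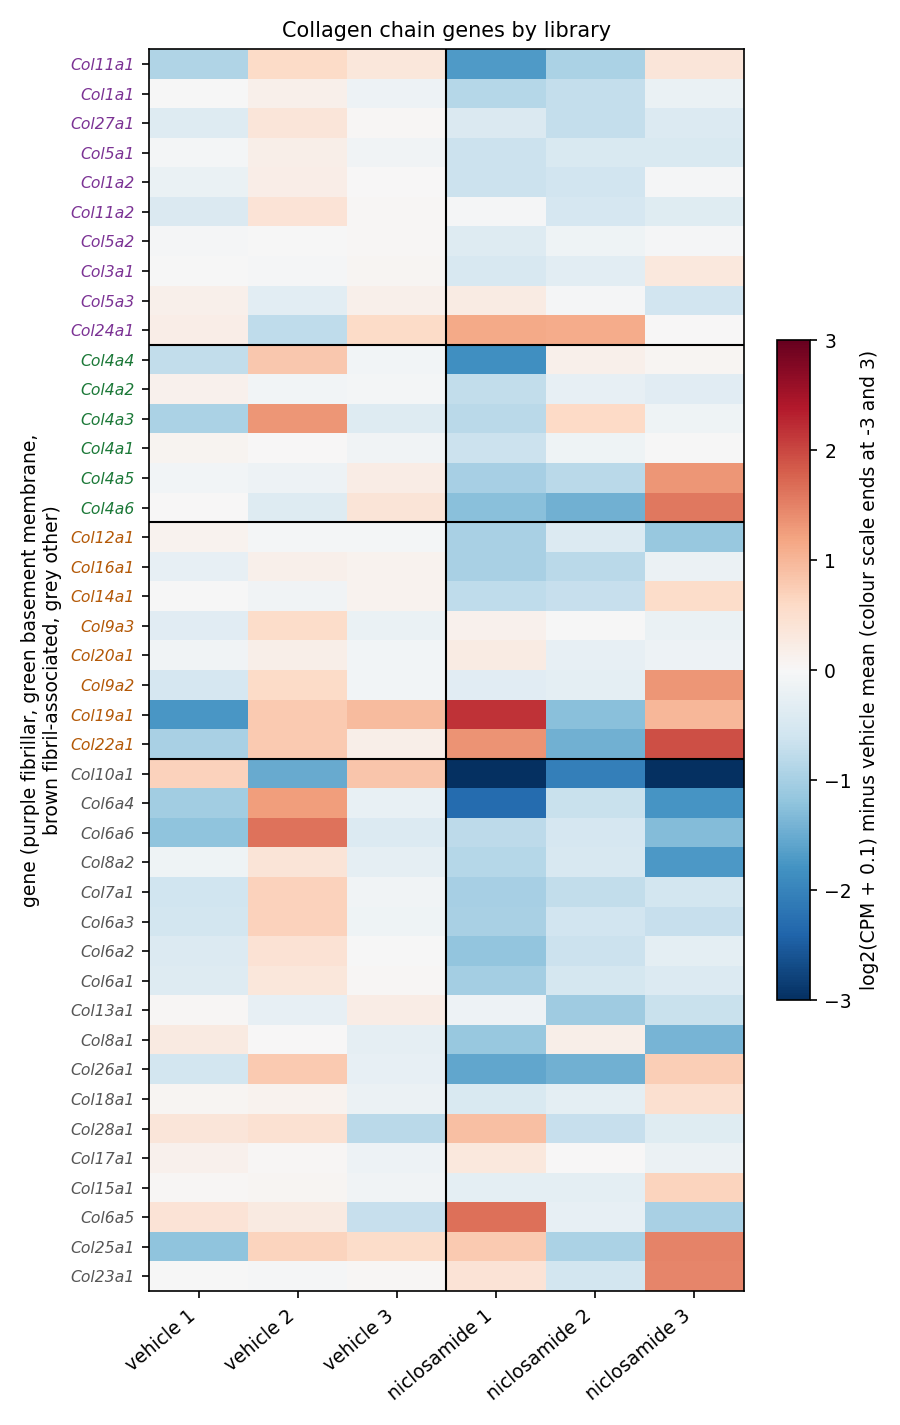
Heat map of log2(CPM + 0.1) minus the vehicle mean for the 42 collagen chains tested (rows, by class) in the 6 libraries (columns). Niclosamide 1 and 2 are mostly blue (26 and 28 chains below every vehicle library), niclosamide 3 is mixed (17 below and 11 above), and vehicle 2 is the highest library for 18 chains.

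Cell type markers differed between libraries beside these results. Over all genes tested, 46.3% had a log2 fold change below 0, 6.92% had an unadjusted p under 0.05 and 12.3% had groups without overlap (6.38% lower). All 8 smooth muscle markers had a log2 fold change below 0, 7 with an unadjusted p under 0.05, and their summed CPM was 5734 to 8463 in vehicle and 1937 to 4784 in niclosamide. The highest niclosamide sum was in niclosamide 3, which was the highest of the niclosamide libraries for 22 of the 42 collagen chains, *Col1a1* and *Col3a1* among them, and the lowest for 10, *Col10a1*, *Col12a1* and *Col8a2* among them. Of the 8 fibroblast markers, 3 were lower and 5 higher, with sums of 1900 to 2556 CPM in vehicle and 2508 to 2784 CPM in niclosamide. *Vim* was the largest part of these sums, at 758 to 1186 CPM in vehicle and 1209 to 1354 CPM in niclosamide, with groups apart and higher. *Pdgfrb*, at 163 to 177 CPM and 81.0 to 141 CPM, had groups apart and lower and was the 1 fibroblast marker with an unadjusted p under 0.05. Sums of 8 skeletal muscle markers ran from 4558 to 10957 CPM in vehicle and from 739.6 to 31721 CPM in niclosamide, and those of 8 uterine epithelial markers from 739 to 1771 CPM and from 342 to 2069.7 CPM. All 8 skeletal muscle markers had a log2 fold change above 0, 0 of them with an unadjusted p under 0.05. All 8 epithelial markers were below 0, and 1 of them, *Foxa2*, had that p and groups apart and lower. The 8 leukocyte markers summed to 916 to 1442 CPM and 1073 to 2017 CPM, and the 8 endothelial markers to 501 to 713 CPM and 449 to 584 CPM. All 8 leukocyte markers had a log2 fold change above 0, 3 with an unadjusted p under 0.05 and 2 with groups apart and higher. Of the 8 endothelial markers, 6 were below 0 and 2 above, and 1 of the lower ones had that p. No marker in the fibroblast, smooth muscle, skeletal muscle, epithelial, endothelial and leukocyte lists was at 0 in any library. Of 6 structural RNAs, listed after their values were seen, 5 had a log2 fold change below 0, 4 had groups apart and lower, and the median was -2.53. *Rpph1* had the smallest p, at 7.43, 2.55 and 3.55 CPM in vehicle and 1.29, 0.154 and 0.342 CPM in niclosamide (DESeq2 adjusted p = 0.020), and *Rnu73b* was the one above 0, at 0.25. The part of cell makeup or RNA quality in the collagen results was not tested.

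Genes that make, shape, bind and degrade collagen were read from the same fit, and edgeR called none of them after adjustment. Of all genes tested, 46.3% had a log2 fold change below 0 and 6.92% an unadjusted p under 0.05. Of 12 prolyl and lysyl hydroxylation genes, 11 had a log2 fold change below 0, with a median of -0.17, and 0 had an unadjusted p under 0.05. The smallest p among them was that of *P3h4*, a partner of the lysyl hydroxylases, at 37.3, 33.5 and 32.1 CPM against 21.9, 30.5 and 29.4 CPM. Of 10 folding and export genes, 7 were below 0 and 0 reached that p. *Fkbp10*, a procollagen chaperone, was at 114, 116 and 118 CPM in vehicle and 63.0, 81.0 and 109 CPM in niclosamide, lower in all 3, with a log2 fold change of -0.46 ± 0.21 (SE; edgeR adjusted p = 0.76).

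Of 7 propeptide processing genes tested, 4 were below 0 and 0 had an unadjusted p under 0.05; *Adamts2*, the procollagen N-proteinase, had the smallest p with a log2 fold change of -0.32 ± 0.17 (SE; edgeR adjusted p = 0.79). Of 5 crosslinking lysyl oxidases, 4 were below 0 and 1 reached that p. This was *Loxl2*, at 250, 215 and 207 CPM against 159, 195 and 165 CPM, lower in all 3 niclosamide libraries, with a log2 fold change of -0.37 ± 0.15 (SE; edgeR adjusted p = 0.71). Of 14 fibril-shaping proteoglycans and glycoproteins, 9 were below 0 and 0 reached that p; *Prelp* had the smallest p, with a log2 fold change of -0.61 ± 0.29 (SE; edgeR adjusted p = 0.77). In the same list *Dcn*, decorin, which binds type I fibrils, differed between the groups in the opposite direction to *Col1a1*. It was at 2220, 1521 and 2065 CPM in vehicle and 2475, 2704 and 2421 CPM in niclosamide, higher in all 3, with a log2 fold change of 0.39 ± 0.21 (SE; edgeR adjusted p = 0.81). *Dcn* was picked out after its values were seen.

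Of 10 collagen receptor and uptake genes tested, 9 were below 0, against 46.3% of all genes tested. An unadjusted p under 0.05 was reached by 3 (2 lower, 1 higher), against 6.92% of all genes in either direction. *Itga10*, the alpha subunit of an integrin that binds collagen, was at 13.8, 23.0 and 19.8 CPM in vehicle and 9.27, 10.8 and 8.30 CPM in niclosamide. The groups were apart, and the log2 fold change was -0.996 ± 0.24 (SE), with an edgeR adjusted p of 0.56 and a DESeq2 adjusted p of 0.039. *Mrc2*, the receptor for collagen uptake, was at 158, 125 and 147 CPM against 96.3, 95.3 and 103 CPM, and *Lair1*, an inhibitory collagen receptor of leukocytes, was the gene above 0. Of 9 collagen-degrading proteases and their inhibitors, 5 were below 0 and 1 had an unadjusted p under 0.05. This was *Mmp9*, a gelatinase that cleaves type IV collagen, at 106, 70.7 and 67.2 CPM in vehicle and 26.1, 38.6 and 21.0 CPM in niclosamide, all lower. Its log2 fold change was -1.51 ± 0.29 (SE), with an edgeR adjusted p of 0.52 and a DESeq2 adjusted p of 0.0029.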

How the data were processed

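The deposited values were raw read counts per gene symbol in 6 libraries, not normalized. Strand-matched reads were summed over the exons of each gene (GRCm38.p3) by featureCounts from Subread 1.4.6-p4, per the file headers; reads mapping to several places or genes were not counted by the options shown. The submitters' processing notes list Trimmomatic 0.33, STAR 2.4.2a and edgeR 3.12.0. The other deposited column used, each gene's exon length, set the RPKM.

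Collagen chain genes and the comparison gene lists were chosen with earlier results of these data known; the structural RNA list was added after seeing the values. Counts were fitted for all genes with edgeR 4.0.16 in R 4.3.3 (filterByExpr with a minimum count of 10 and a minimum total of 15, TMM scaling, robust quasi-likelihood, group as the only term), with Benjamini-Hochberg adjustment over 17364 genes and a threshold of 0.05. CPM uses TMM-scaled library sizes, and SE was obtained by dividing the size of the log2 fold change by the root of the F statistic. Alternatives were RLE scaling, DESeq2 1.42.0, limma-voom 3.58.1, an adjusted p under 0.10, no filter, a filter at CPM 1 in 3 libraries, a replicate block and each library left out. Chains described by library were the 3 of highest mean RPKM per class (4 in the other classes), those with an unadjusted p under 0.05, and the 3 lowest and 3 highest fold changes at a mean CPM of at least 1; the rest are given by range, with *Col4a6*, *Col6a5* and *Col8a1* described beside their partners after their values were seen. In each list of collagen biosynthesis, binding and degradation the gene of smallest p was named. Protein features were not analysed here.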

Additional observations from a re-analysis of the deposited data

How the results depend on the processing

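Beyond the 0 genes called by edgeR, DESeq2 called 178 genes (1 of them a collagen chain, *Col10a1*, log2 fold change -3.73) and edgeR without the low-count filter called 1 gene; an adjusted p under 0.10 still called 0 collagen chains. The number of chains lower at an unadjusted p under 0.05 was 10, and 2 to 13 when a library was left out. For higher chains it was 0, and 0 to 2. With a library left out, shares of all genes were counted only for the fits given with shares above, and for lower genes alone. The top of either range therefore cannot be set against all genes, and whether it is particular to collagen chains was not tested. With a library left out, the fibrillar class median stayed below 0, from -0.51 to -0.27. The medians of the remaining classes ran from -0.55 to 0.085 (basement membrane, 0.085 without vehicle 2), -0.20 to 0.15 (fibril-associated, 0.15 without vehicle 2 and 0.03 without niclosamide 2) and -0.68 to -0.24 (other, -0.24 without vehicle 2). Single chains moved likewise: *Col3a1* ran from -0.38 to 0.029, *Col14a1* from -0.72 to 0.049, *Col15a1* from -0.29 to 0.26 and *Col4a5* from -0.90 to 0.61. *Col4a5* was -0.16 by limma-voom. The cause was not tested. The main fit did not pair libraries by replicate number. Correlations of deviations between libraries of the same number were -0.085, -0.087 and 0.27. Without correlations between different numbers beside them, they cannot show whether the numbers pair. With the replicate number as a block, for which no share of all genes was counted, 9 chains had an unadjusted p under 0.05. Of these, 8 were among the 10 (*Col10a1* and *Col27a1* were not). In that fit *Col4a5* was -0.18, and 0 chains were called. Of the 23 chains named by rule, 19 kept their direction under all 12 alternatives. Depth limits *Col2a1* and *Col9a1*, whose counts of at most 8 were not tested.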
